A study of Ovis aries with 18 samples.

Results

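A set of 72 genes lay at one extreme of the data in every animal sampled after 4 weeks of short photoperiod (SP4). The members were chosen by their measured levels. In 42 of them all 4 SP4 animals lay above all 11 other animals, and in 30 all 4 lay below. The set was drawn from 11998 genes that averaged 5 CPM or more (reads of a gene scaled to a common library total) over the 15 animals used, of 25197 genes listed. Genes in which all long photoperiod animals lay on one side of all short photoperiod animals were left out, as were 2 further genes listed in the rule.

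The libraries came from pars tuberalis (PT) RNA of castrated male Scottish Blackface sheep kept in controlled light. Short photoperiod (SP) gave 8 h of light a day, for 4 weeks in SP4 and 16 weeks in SP16. Long photoperiod (LP) gave 16 h of light a day, for 4 weeks in LP4 and 22 weeks in LP22. Sex, castration and breed were shared by all 4 groups, which the study compared to follow the PT response to photoperiod and to its duration. Each group had 4 animals, but LP4 entered with 3, and the light exposure before each treatment is not given in the sources used here.

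The PT is a thin sheet of endocrine cells around the pituitary stalk. Its cells carry melatonin receptors and read day length from the nightly melatonin signal. Through thyrotropin the PT acts on the neighbouring hypothalamus, a route to the control of seasonal reproduction. Seasonal prolactin is regulated within the pituitary by a local PT signal, without neural input.

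The deposited counts name genes by Ensembl sheep ID alone, and 0 of the 25197 IDs matched the reference gene table. The members are therefore described by ID or by their place in the set, with no known function attached. Marker genes of PT or neighbouring cell types were not looked up for the same reason, so the tissue label was not checked against markers. In bulk tissue, fewer cells of a type and less RNA per cell cannot be told apart.

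The 15 animals had 1746861 to 5850281 gene counts each, and these limit how finely low genes can be separated. A pair of LP4 libraries stood apart from the other 16 before any gene was chosen. The median correlation across genes with all other libraries was 0.549 for LP4 animal 3 and 0.776 for the first of both LP4 animal 2 libraries, against 0.930 to 0.955 for the remainder. Neither was used to choose members, and LP4 animal 2 was represented by its repeat library. That repeat library had a TMM scaling factor of 0.636, whereas the other 10 animals outside SP4 had 0.984 or more and the SP4 animals 0.950 to 1.08.

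All SP4 values lay above all others in 45 genes (0.375% of the genes considered) and below all others in 34 (0.283%), together 79 (0.658%). The photoperiod condition then removed 3 of the higher and 4 of the lower genes, and the 2 genes listed in the rule removed none, which left 0.6% as members. These counts follow from the choice of genes and carry no test. Scaling by library size only left 40 genes (30 higher, 10 lower), 22 of them among the 72, and leaving out 1 animal gave 80 to 190. Applied to the other groups of 4 animals, the same steps left 114 genes for SP16 (1.06% separated before exclusions) and 91 for LP22 (0.875% separated). SP4 thus had the fewest extreme genes of the 3 groups, a comparison that was not tested.

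Most members differed from the other animals by a log2 ratio under 1. The log2 ratio of the SP4 mean to the mean of the other 11 animals ran from 0.12 to 1.64 in the higher members, with a median of 0.48, and from -1.73 to -0.11 in the lower members, with a median of -0.56. The ratio reached 1 in size in 2 higher and 4 lower members. Across all 11998 genes its median was -0.004, and 138 genes reached 1 in size, so most genes with a large mean ratio had overlapping groups. Members were expressed at moderate levels, with a median mean of 39.3 CPM in the higher and 32.4 CPM in the lower members against 20.8 CPM over all genes considered.

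**Figure D1:**
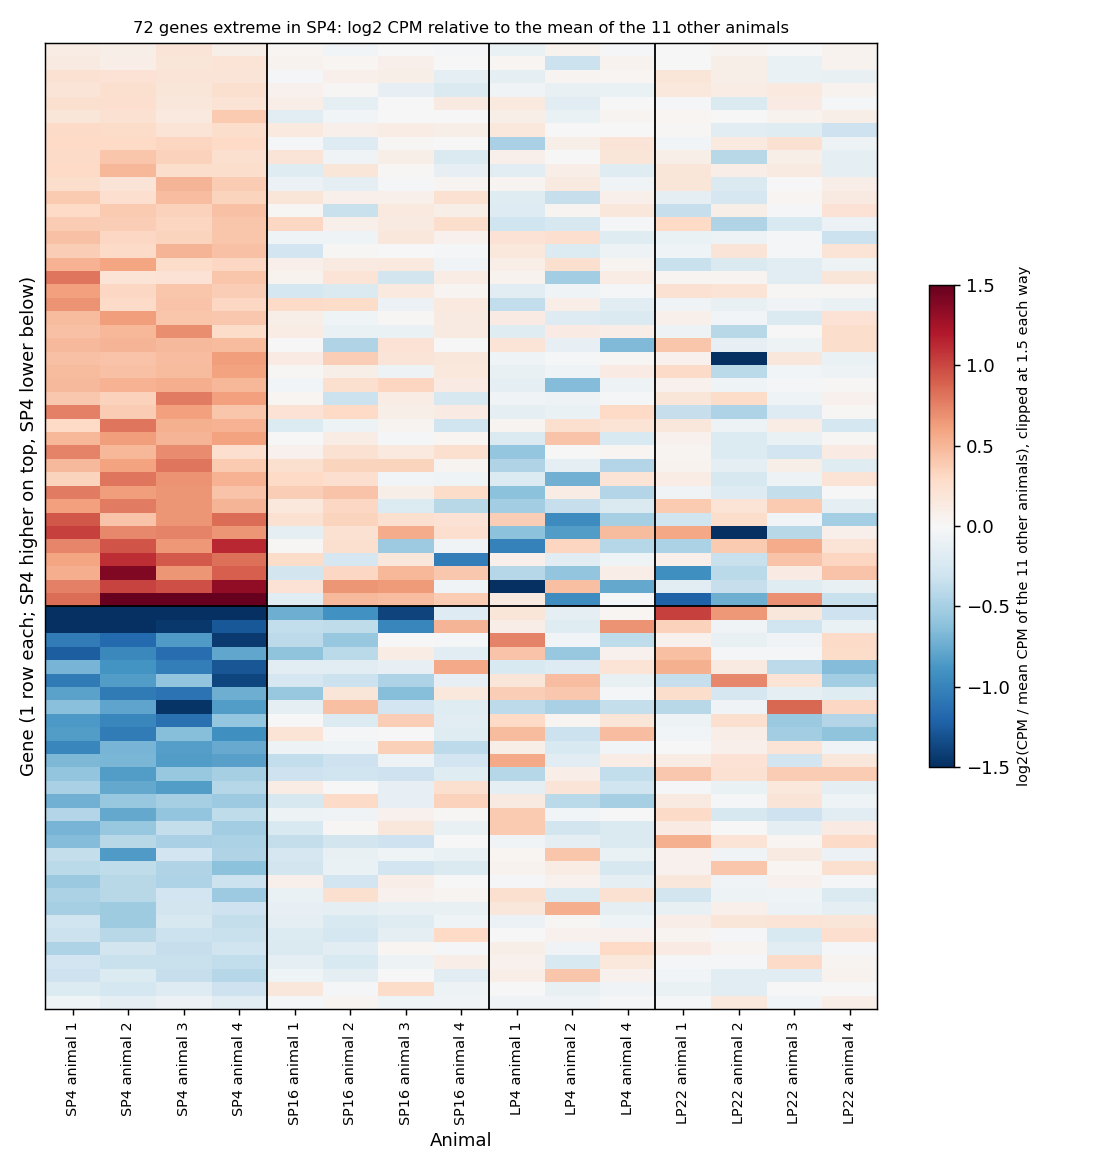
Heat map of the 72 genes (1 row each) in 15 animals (columns, by group). Colour gives the log2 ratio of an animal's CPM to the mean CPM of the 11 animals outside SP4, clipped at 1.5 each way; the SP4 columns are at one extreme in every row because the genes were chosen so, and most rows are pale, with median log2 ratios of 0.48 above and -0.56 below the line.

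The margin that set SP4 apart was narrow in most members. Between the closest SP4 animal and the closest other animal the gap had a median of 4.28% in the higher members (0.204% to 13.8%) and 4.39% in the lower members (0.0422% to 24.5%). It was under 5% in 27 of 42 higher and 17 of 30 lower members, and over 20% in 0 and 4. A further 19 genes on the higher side and 23 on the lower side missed membership because 1 of the 44 pairs of an SP4 and another animal was out of order. The near miss with the ratio largest in size had -2.04 on the log2 scale, with means of 2.56 CPM in SP4 and 10.5 CPM in the other animals, and so exceeded every member.

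ENSOARG00000008976 had the largest ratio among genes higher in SP4. Its levels were 9.89, 18.7, 21.2 and 18.7 CPM in SP4 animals 1 to 4, and 4.93, 7.71, 7.63 and 7.16 CPM in SP16. In LP4 they were 6.06, 2.90 and 5.40 CPM, and in LP22 2.38, 3.34, 8.84 and 4.38 CPM. SP4 animals 2 to 4 stood well clear of the rest, while animal 1 lay just above the highest LP22 animal. The group means were 17.1 ± 4.98 CPM in SP4 (SD, n = 4) and 6.86 ± 1.31 CPM in SP16 (SD, n = 4), and the log2 ratio to all other animals was 1.64. Raw counts were 42 to 55 in SP4 and 5 to 26 elsewhere. The separate libraries of SP4 animal 1 held 6.82 CPM (first) and 11.1 CPM (repeat), and the first alone fell within the range of the other groups.

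ENSOARG00000021127 was the second of the higher genes by ratio, at 1.03 on the log2 scale. SP4 animals had 7.19, 8.56, 8.30 and 10.7 CPM. SP16 animals followed at 4.93, 6.74, 6.59 and 4.09 CPM. The LP22 animals lay close together, at 3.81, 3.34, 3.74 and 3.94 CPM, and the LP4 animals were spread, at 1.21, 5.80 and 2.49 CPM. Every SP16 animal was above every LP22 animal, and LP4 overlapped both. The gene had 0 counts in both LP4 libraries that stood apart. On the scale of all 18 libraries, SP4 animal 1 had 5.25 CPM in its first library and 7.95 CPM in its repeat. The first library alone no longer lay above every other animal.

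ENSOARG00000011552 had the largest ratio among genes lower in SP4, at -1.73. SP4 animals had 2.88, 2.45, 2.77 and 1.79 CPM, from 16, 6, 6 and 4 counts. Levels in SP16 were 4.93, 4.34, 3.12 and 7.16 CPM, in LP4 9.29, 7.46 and 8.31 CPM, and in LP22 16.7, 12.8, 9.18 and 6.57 CPM. The LP4 animals were above all SP16 animals, and LP22 overlapped SP16 through 1 animal. The SP16 mean of 4.89 ± 1.69 CPM (SD, n = 4) lay between the SP4 mean of 2.47 ± 0.491 CPM (SD, n = 4) and both LP means. Its repeat library in SP4 animal 1 (3.45 CPM), on the scale of all 18 libraries, no longer lay below every other animal.

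ENSOARG00000019333, at a log2 ratio of -1.66, showed more overlap among the other groups. Its SP16 mean of 6.54 CPM also lay between the SP4 mean and both LP means. SP4 animals had 1.62, 2.04, 2.77 and 3.12 CPM, against 5.82, 5.78, 3.81 and 10.7 CPM in SP16. LP4 animals had 8.08, 6.63 and 12.05 CPM and LP22 animals 9.53, 7.23, 6.12 and 7.01 CPM. The 3 other groups overlapped one another, so SP4 alone stood low. Counts were 5 to 9 in SP4. LP4 animal 3, which stood apart and was not used to choose the gene, had 29.5 CPM, also above SP4.

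The lower member with the widest margin was 24.5% clear of its nearest neighbour, an SP16 animal. It had 78.1, 77.8, 70.1 and 71.0 CPM in SP4 and 97.2, 101, 119 and 103 CPM in SP16. LP4 animals had 185, 111 and 135 CPM and LP22 animals 135, 146, 102 and 141 CPM. The SP4 animals were close together, and SP16 overlapped both LP groups. Both libraries that stood apart were lower still, at 25.6 CPM in LP4 animal 3 and 63.8 CPM in the first library of LP4 animal 2, so in both the gene was on the far side of the SP4 animals from the rest. At the other end, the member with the narrowest margin had 42.9 CPM both in its highest SP4 animal and in its lowest other animal, of LP22, with a gap of 0.0422%.

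**Figure D2:**
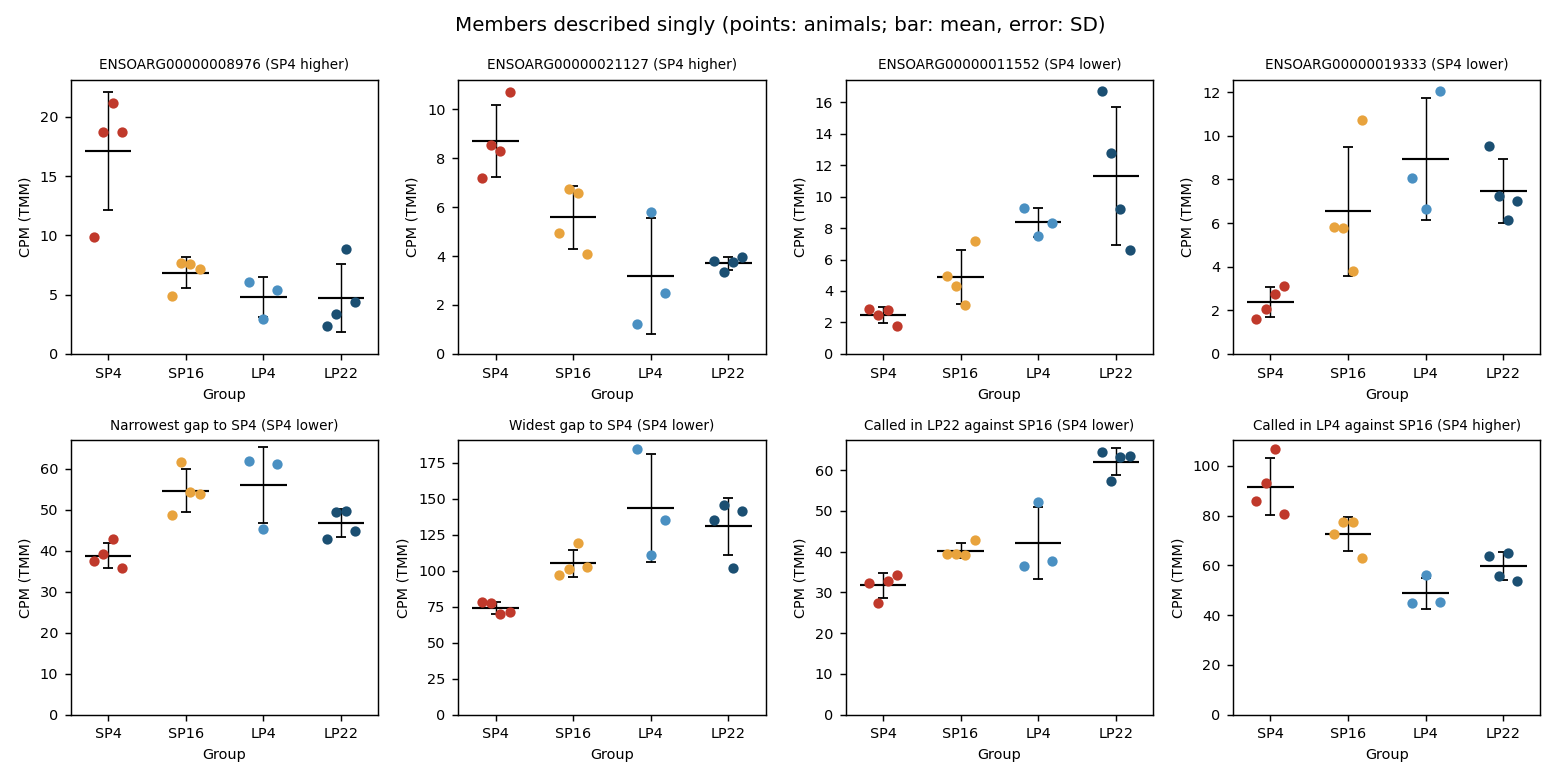
CPM by group (points are animals, horizontal bars means, error bars SD; the axis starts at 0) of the 8 genes described singly: the 2 with the largest ratio in each direction by ID, those with the narrowest and the widest gap, and those that passed a test between the other groups. For ENSOARG00000011552 the means climb from SP4 (2.47 CPM) through SP16 (4.89 CPM) to LP22. For ENSOARG00000019333 the SP16 mean (6.54 CPM) also lies between SP4 and both LP means, and the 3 groups other than SP4 overlap.

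Among the other groups, the members differed in which mean was closest to SP4. The SP16 mean lay between SP4 and both LP means in 21 of 42 higher (50%) and 18 of 30 lower members (60%). Of all genes considered whose SP4 mean was the highest or the lowest of the 4 group means, 42.0% and 41.1% had this order. Those genes were picked on group means only, whereas the members were chosen on the values of each of these same animals. The shares are therefore not like for like, and their difference was not tested. In the members the SP16 mean lay beyond both LP means in 8 and 4 members, and between the LP means in 13 and 8. The median log2 ratio of SP4 to SP16 was 0.38 in the higher members, against 0.52 to LP4 and 0.48 to LP22. In the lower members it was -0.50 to SP16, -0.54 to LP4 and -0.63 to LP22. The single animal nearest to SP4 came from LP22 in 20 higher members, from SP16 in 14 and from LP4 in 8; in the lower members it came from SP16 in 17, LP22 in 7 and LP4 in 6.

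**Figure D3:**
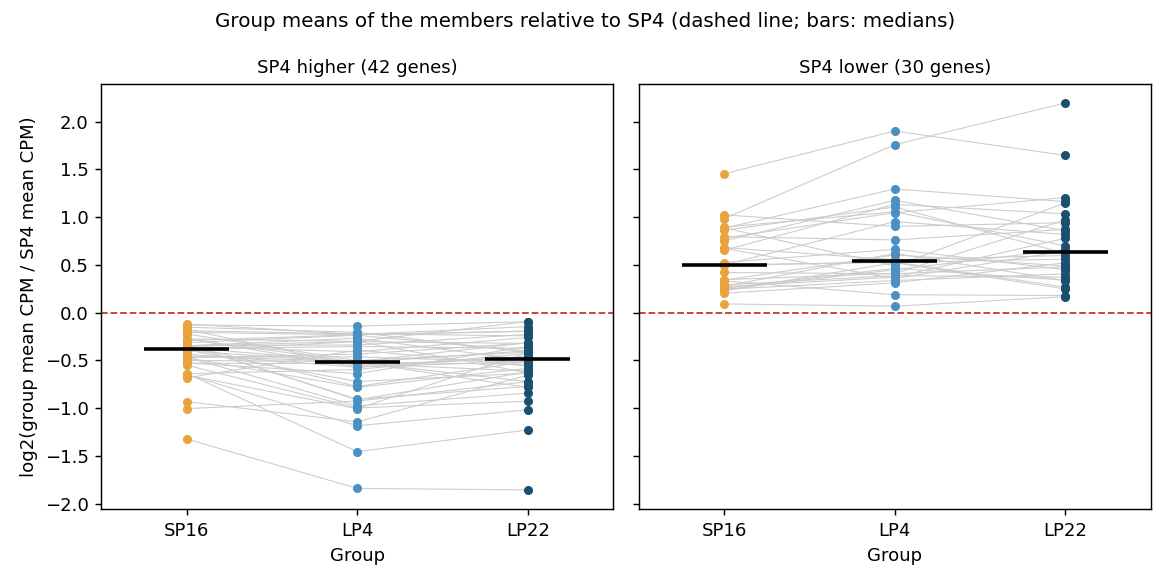
Log2 ratio of the SP16, LP4 and LP22 mean CPM to the SP4 mean CPM (dashed line at 0) for the 42 genes higher and the 30 lower in SP4; points are genes, grey lines join a gene and black bars are medians. The median bars are nearest to the line in SP16 in both panels, and genes range widely within each group.

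Which SP4 animal was the most extreme varied between members. The animal farthest from the other groups was animal 1 in 11, animal 2 in 12, animal 3 in 10 and animal 4 in 9 of the higher members. In the lower members it was animal 1 in 8, animal 2 in 7, animal 3 in 5 and animal 4 in 10. SP4 animal 1 was the sum of a first and a repeat library, and with the libraries taken separately 39 of the 72 members (19 higher, 20 lower) still had every SP4 library at the extreme.

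The LP4 libraries that stood apart were not used in the choice and are given as values. The SP4 range in these genes was made extreme by the choice itself. A library of any kind is therefore more likely to lie on the side of the other animals. For that reason the shares over all genes are no measure of chance. LP4 animal 3 lay below the range of the SP4 libraries in 29 of 42 higher members (69.0%, against 49.7% of all genes considered) and above it in 9. It lay above that range in 18 of 30 lower members (60% against 39.5%) and below it in 11. The first library of LP4 animal 2 lay below the SP4 range in 27 of 42 higher members (64.3% against 43.9%) and above it in 5. It lay above that range in 18 of 30 lower members (60% against 31.3%) and below it in 10. Both libraries departed from SP4 in most genes, so these shares were not tested.

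**Figure D4:**
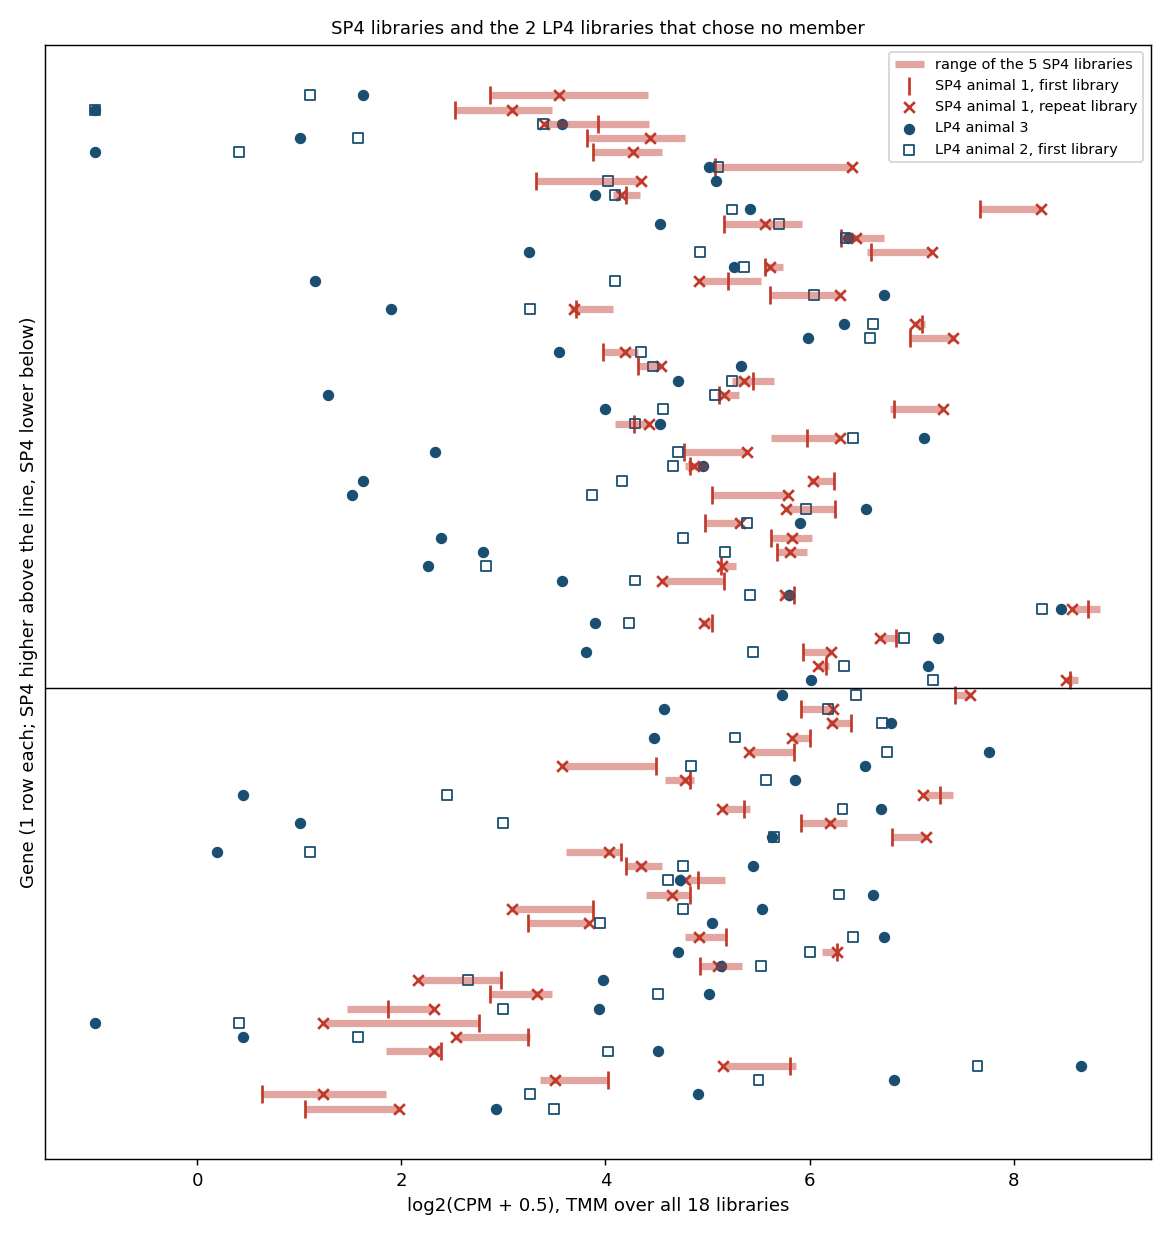
Log2(CPM + 0.5), scaled over all 18 libraries, of the 72 genes (1 row each, ordered by ratio): red bands span the 5 SP4 libraries, with ticks and crosses for both libraries of SP4 animal 1, and blue marks show the LP4 libraries that stood apart. Many blue marks lie on the side of the other animals, left of the band above the line in 29 rows for LP4 animal 3, but they are scattered on both sides.

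Differences among the other 3 groups did not use the SP4 values. They were tested by edgeR's quasi-likelihood test in a fit of the 11 other animals over 13178 genes, which held all 72 members. Because the photoperiod condition had removed genes in which SP16 sided with SP4 against all LP animals, the contrasts of LP with SP16 are not wholly separate from the choice. The choice also required the values of these same 11 animals to lie on one side of SP4. None of the 3 contrasts is therefore wholly separate from it. The labels number the samples of a group without saying more of their origin, so the p-values measure only the spread between these samples, each taken here as 1 animal.

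LP22 against SP16 asked about prolonged exposure to each photoperiod. Of all genes tested, 2.82% passed a false discovery rate (FDR) of 0.05, and 1 of the 72 members did. This gene, a lower member, had 64.4, 57.3, 63.3 and 63.5 CPM in LP22 and 39.4, 39.5, 39.2 and 43.0 CPM in SP16. The groups did not overlap, and LP22 was higher by 0.63 on the log2 scale in the edgeR test (SE 0.12, FDR = 0.00705). Its SP4 animals had 32.4, 27.3, 32.7 and 34.4 CPM and its LP4 animals 36.4, 52.2 and 37.8 CPM. With LP4 animal 3 included in the fit its FDR by edgeR was 1, and 0 members passed. Calls over all genes also fell in that fit, to 10 of 13014 from 371 of 13178. ENSOARG00000011552 was higher in LP22 by 1.22 on the log2 scale (SE 0.32), with an FDR of 0.0561 by edgeR that missed the threshold. The call depended on the setting, passing without the filter on low counts (edgeR FDR = 0.0409), with the libraries of LP4 animal 2 summed (edgeR FDR = 0.0463) and by DESeq2 (adjusted p = 0.0476), but not with LP4 animal 3 included (edgeR FDR = 0.665). Leaving out 1 animal at a time gave edgeR FDRs of 0.0271 to 0.181, under the threshold without LP4 animal 2, LP22 animal 4 or SP16 animal 4 only. At an unadjusted p of 0.05 the edgeR test gave 11 members (15.3%) and 15.8% of all genes.

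LP4 against SP16 compared early LP with prolonged SP. At an FDR of 0.05, 1.26% of all genes and 1 of the 72 members passed. This gene, a higher member, had 44.8, 56.0 and 45.3 CPM in LP4 and 72.5, 77.6, 77.3 and 62.9 CPM in SP16, with no overlap. By edgeR it fell by 0.57 on the log2 scale in LP4 (SE 0.12, FDR = 0.0349). Its SP4 animals had 86.0, 92.9, 107 and 80.8 CPM and its LP22 animals 63.9, 55.6, 65.0 and 53.9 CPM. The call was lost with the libraries of LP4 animal 2 summed (edgeR FDR = 0.163) and with LP4 animal 3 included (edgeR FDR = 0.79). In the summed setting 157 of 13178 genes and 1 other member passed. With LP4 animal 3 included 6 of 13014 genes and 0 members passed, against 166 of 13178 genes in the main fit. Leaving out 1 animal at a time gave edgeR FDRs of 0.0158 to 0.103, and the call was also lost without LP4 animal 1 or 4 or SP16 animal 1, 2 or 3. An unadjusted p under 0.05 was found in 10 members (13.9%) and 13.9% of all genes.

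LP22 against LP4 compared prolonged with early LP. The edgeR test called 0.0304% of all genes (4 genes) and 0 members, with a lowest member FDR of 0.263. DESeq2 also called 0 members. At an unadjusted p under 0.05 there were 7 members (9.72%) and 8.23% of all genes. In none of the 3 contrasts did more than 1 member pass, so the share of members called was not set apart from that of all genes.

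In the contrasts with SP16 the signs leaned one way within each direction. Among the higher members 29 of 42 were lower in LP4 than in SP16 (median log2 fold change -0.07) and 25 of 42 were lower in LP22 (median -0.06). Among the lower members 22 of 30 were higher in LP4 (median 0.14) and 22 of 30 were higher in LP22 (median 0.09) than in SP16. Over all genes tested the medians were 0.003 for LP4 and 0.0006 for LP22, and 50.3% and 50.1% of genes were higher than in SP16. Between LP22 and LP4, 29 of 42 higher members were higher in LP22 and the lower members split 15 to 15, against 49.1% of all genes higher in LP22. Each pair of contrasts shares a group of animals, the medians are small, and no test was made over the list.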

How the data were processed

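Per the labels, the series held 18 libraries of 16 numbered samples (with repeats of SP4 sample 1 and LP4 sample 2). Each sample was taken here as 1 animal. The authors aligned reads to Oar_v3.1 with Bowtie and deposited HTSeq read counts per gene without scaling (25197 gene rows and 5 summary lines a library). Tool versions, strand setting and annotation release are not given in the sources used here. Reads in no feature, left out of library sizes, were 81.2% to 84.1% of the aligned reads assigned to genes, ambiguous or in no feature in SP4, and 78.6% to 84.5% in the other groups without the libraries that stood apart.

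Both libraries of SP4 animal 1 were summed, LP4 animal 2 was its repeat library and LP4 animal 3 was left out. CPM were scaled by TMM in edgeR 4.0.16 (R 4.3.3). Contrasts without SP4 used glmQLFit and glmQLFTest after filterByExpr, 2-sided, with Benjamini-Hochberg adjustment over all genes and calls at FDR under 0.05. SE were derived from the F statistic. Correlations between libraries used log2 CPM (prior count 2) for genes averaging 1 CPM or more. Figures used Python 3.11.15 and matplotlib 3.10.9. Scripts were checked on simulated data.

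The members and lists were chosen with earlier results of these data known. The rule for genes described singly took the 2 largest ratios per direction, the narrowest and the widest gap and members called in a contrast without SP4. It also took named genes and fixed lists of pathways and cell types, which were not applied because neither the files nor the reference table used here pair an ID with a name. Supplementary tables of the study pair some IDs with symbols and were not used here. IDs are printed for 2 genes per direction. Alternatives were RLE and upper-quartile scaling or library size only, other CPM minimums, no filter, other uses of the repeat and left-out libraries, DESeq2 1.42.0, a fit of 15 animals, a replicate block and leaving out each animal.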

Additional observations from a re-analysis of the deposited data

Results flagged for a closer look

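The lower member that passed in LP22 against SP16 had a single animal far from its group by Dixon's criterion in 2 groups. SP16 animal 4 had 43.0 CPM against 39.2 to 39.5 CPM in the other 3, and LP22 animal 2 had 57.3 CPM against 63.3 to 64.4 CPM. Of 24 groups of 4 animals examined over the genes described singly, 2 were found, and chance gives about 1 in 20, or 1.2.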

How the results depend on the processing

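The 72 members became 78, 75 and 40 (30 higher, 10 lower) with RLE scaling, upper-quartile scaling and library size only. These kept 69, 68 and 22. Mean CPM minimums of 1 and 10 gave 88 and 64 and no filter 92. Including LP4 animal 3 gave 48 (45 kept), summing the libraries of LP4 animal 2 gave 99 (63 kept), and SP4 animal 1 from its first or repeat library only gave 64 (46 kept) or 71 (60 kept). Leaving out each animal gave 80 to 190, since fewer animals must then be in order. The count was 150, 126, 159 and 190 without SP4 animals 1 to 4 and 115 without LP4 animal 2. The log2 ratios of the 8 genes described singly moved by less than 1 SD (within groups, on log2(CPM + 0.5)) in all 176 alternative values other than filters, which cannot move a ratio, and 0 changed sign. With 1 animal left out, the choice of separated genes largely fixes the sign, and a mean moves little against that SD. Signs are then no check and sizes a weak one. Members called in LP22 against SP16 numbered 2 with no filter, 4 in a fit of 15 animals (which takes in the SP4 values that chose the members), 0 with LP4 animal 3 included, 5 with the libraries of LP4 animal 2 summed and 3 by DESeq2, and 1 to 5 when each animal was left out (5 without LP4 animal 2, 3 without LP22 animal 3 or SP16 animal 4, 2 without LP4 animal 4 or LP22 animal 4). In LP4 against SP16 they numbered 0 with LP4 animal 3 included and 0 to 2 when each animal was left out (0 without LP4 animal 1 or 4 or SP16 animal 1, 2 or 3, and 2 without LP4 animal 2). In LP22 against LP4 they numbered 0 to 1 when each animal was left out (1 without LP4 animal 2). The cause of these changes was not tested. ENSOARG00000011552 had 4 to 16 counts in SP4, so depth limits the order of its animals.

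The animal numbers are shared between groups. Among LP4, LP22 and SP16, the groups tested, the 10 pairs of animals that share a number correlated in their deviations at 0.013 on average (-0.163 to 0.141). The 30 pairs with different numbers correlated at -0.004 on average. No sign of pairing by number was seen, but pairing is not excluded. With the replicate block, 1 member passed in LP22 against SP16, 0 in LP4 against SP16 (FDR = 0.0788 by edgeR for the gene called there) and 0 in LP22 against LP4. Over all genes the block gave 340, 78 and 9 calls, against 371, 166 and 4.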
